A study of Mus musculus with 6 samples.

Results

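The 10 genes of the MYC, MAX and MXD network were followed in embryoid bodies of mouse iPSCs after intermittent compressive force (ICF). The genes were Myc, Mycn, Mycl, Max, Mxi1, Mxd1, Mxd3, Mxd4, Mnt and Mga, found by their mouse symbols through the Ensembl identifiers among the 50686 identifiers counted. All 10 had enough counts to be tested and were among the 16729 genes tested. The cells were induced pluripotent stem cells made from gingival fibroblasts of the mouse. Embryoid bodies in both groups had been exposed to retinoic acid and then plated on gelatin. For 24 h in medium without serum, 3 samples received ICF at 1.5 g per square centimetre and 0.23 Hz and 3 control samples received no load. The labels number the samples as donors 1 to 3 in each group, and this number is called the replicate here. The sources used here do not say which reprogramming factors the line carries, and reads from an introduced mouse Myc copy would be counted on Myc.

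MYC proteins bind DNA only as partners of MAX, at a short sequence called the E-box, and recruit activators of transcription there. MXD proteins, MNT and MGA also pair with MAX, occupy the same sites and recruit repressors, so the network is usually described as a contest for MAX and for E-boxes. In pluripotent cells MYC and MYCN sustain growth and self-renewal, and MGA with MAX keeps genes of the germ line silent.

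Gene counts as deposited summed to 28711166 in the sample with the fewest and 34194413 in that with the most. Multiples of 4 made up 89.0% of the nonzero gene counts of ICF replicate 3 but 20.3% to 21.5% elsewhere, and the counts of all 10 members in that sample were multiples of 4. That sample had counts on 20802 genes, the other samples on 24340 to 24889. Whether its count sum overstates its depth was not tested. ICF replicate 3 and control replicate 3 stood apart from the other samples of their groups on the first principal component. Pluripotency markers were abundant, with Pou5f1 at 841 ± 57.2 CPM (SD, n = 3) and Nanog at 353 ± 39.3 CPM (SD, n = 3) in the control. CPM are read counts scaled to library size after TMM normalization. The summed level of 9 pluripotency markers ran from 3476 to 4110 CPM in the control and from 3163 to 3460 CPM with ICF. That of 10 mesenchymal markers ran from 377 to 437.5 CPM in the control and from 453 to 467 CPM with ICF, that of 6 neural markers from 142.5 to 164.1 and from 130.1 to 141.9 CPM, and that of 6 endoderm markers from 358.6 to 375.7 and from 353.3 to 393.8 CPM. Blood and endothelial markers summed to 54.8 to 70.8 CPM in the control and 57.8 to 91.6 CPM with ICF. The ranges of the pluripotency, mesenchymal and neural sums did not overlap between the groups. Without Tdgf1, however, the pluripotency sums of the groups overlapped, and without Elavl3 the neural sums did. In their means 8 of 9 pluripotency markers were lower with ICF, 3 of them without overlap, and 9 of 10 mesenchymal markers were higher, 5 of them without overlap. Over all genes tested 15.7% were lower without overlap and 15.6% higher. The largest fall among the pluripotency markers was that of Tdgf1, from 722 ± 88.9 to 411 ± 36.5 CPM (SD, n = 3). Dppa5a and Zfp42 were also lower without overlap, while Pou5f1, Nanog and Sox2 overlapped between the groups. Of the mesenchymal markers, Col1a1 went from 15.3 ± 3.31 to 25.6 ± 2.10 CPM and Col3a1 from 9.64 ± 2.16 to 16.0 ± 3.02 CPM (SD, n = 3), and only Dcn was lower in its mean. Among the neural markers Elavl3 and Tubb3 were lower without overlap and Nes and Map2 higher. The part of these markers in the results that follow was not tested. In whole embryoid bodies, fewer cells of a type and less RNA per cell cannot be told apart.

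Mycn was by far the most abundant member. To compare genes with each other, counts were divided by exon length and scaled to the library total (TPM), a level per length. In the control, the Mycn level was 305.8, 304.1 and 272.4 TPM in replicates 1, 2 and 3, and that of Myc was 39.96, 36.76 and 41.03 TPM. The level of Mycn was 7.52 ± 0.82 times that of Myc in the control (SD, n = 3) and 7.28 ± 0.21 times with ICF (SD, n = 3). Max, the shared partner, followed Mycn at 97.3 ± 2.91 TPM (SD, n = 3) in the control. Below Max stood Mnt with a control level of 51.4 ± 1.94 TPM, Mga with 44.0 ± 5.80 TPM and Myc with 39.3 ± 2.22 TPM (SD, n = 3). The sample ranges of Mnt and Mga overlapped, and so did those of Mga and Myc, so the order of neighbours among these genes was not resolved. Mxi1 had a control level of 27.3 ± 2.51 TPM, Mycl 18.1 ± 1.12 TPM and Mxd3 17.9 ± 3.64 TPM (SD, n = 3), and the last of these overlapped with Mycl. Mxd4 at 8.30 ± 0.75 TPM and Mxd1 at 3.19 ± 0.10 TPM (SD, n = 3) were the lowest. All other neighbours in this order were separated in every sample of the control and of the ICF group.

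In summed TPM, the activators Myc, Mycn and Mycl outweighed the antagonists Mxi1, Mxd1, Mxd3, Mxd4, Mnt and Mga in every sample. The summed activator level was 365.0, 358.9 and 330.4 TPM in control replicates 1 to 3 and 366.1, 389.2 and 385.3 TPM in ICF replicates 1 to 3. The summed antagonist level was 148.2, 158.1 and 149.8 TPM in the control and 143.8, 141.9 and 149.8 TPM with ICF. Mycn made up 82.4% to 85.2% of the activator sum. Mnt and Mga made up 60.6% to 69.9% of the antagonist sum. Activators over antagonists gave ratios of 2.463, 2.27 and 2.206 for control replicates 1 to 3 and of 2.545, 2.743 and 2.573 for ICF replicates 1 to 3, so on this scale each ICF sample lay above each control sample. The mean log2 ratio was 0.18 higher with ICF, against a pooled SD of 0.07 between replicates, and as a score over chosen genes it was given no test. From CPM, without division by length, the ratios were 1.026, 0.944 and 0.833 for the control replicates and 0.942, 1.058 and 0.901 for the ICF replicates. There the groups overlapped, antagonists exceeded activators in 4 of 6 samples, and the difference of the mean log2 ratios was 0.05. Without Mga it was 0.32 on the TPM scale. The size of this difference therefore depended on how Mga was weighted.

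**Figure D1:**
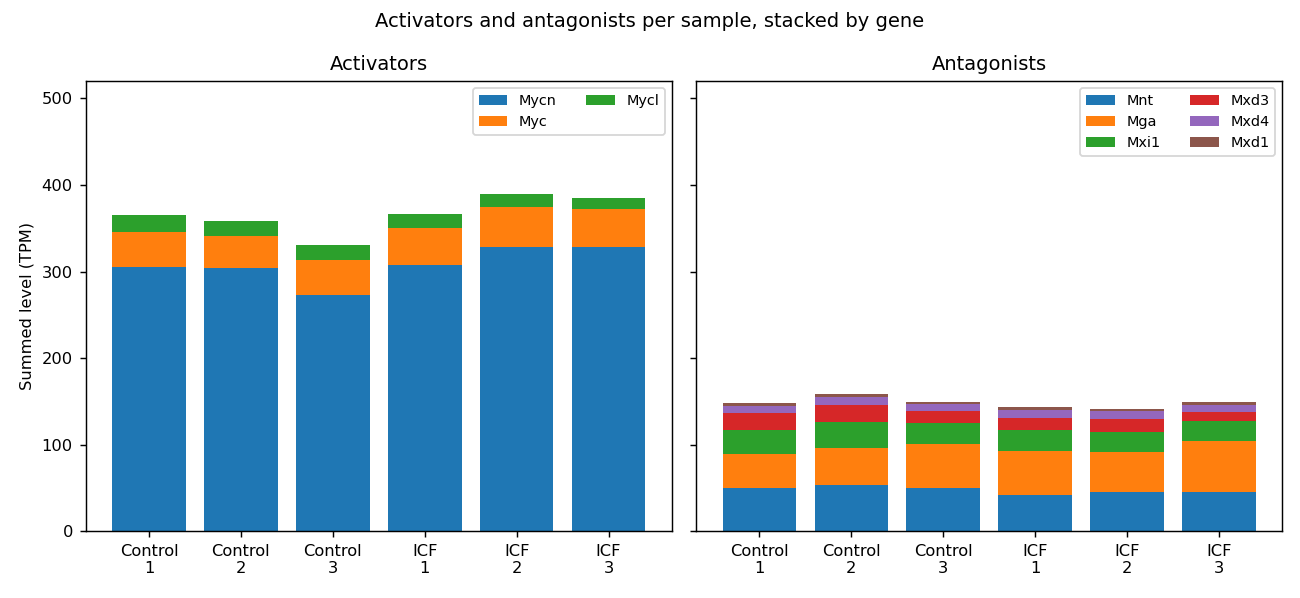
Summed level in TPM of activators (left) and antagonists (right) in each of the 3 control and 3 ICF samples, each bar stacked by gene. Mycn fills 82.4% to 85.2% of every activator bar, and Mnt with Mga 60.6% to 69.9% of every antagonist bar.

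No member passed a false discovery rate of 0.05 between ICF and control in edgeR's quasi-likelihood test, where 3.47% of all genes tested were called higher and 4.38% lower, 7.85% in all. At an unadjusted p under 0.05 there were 3 members, Mnt, Mxi1 and Mycl, beside 4277 of all 16729 genes tested. DESeq2 called these 3 lower, where it called 7.26% of genes lower and 5.95% higher, 13.2% in all. When each ICF sample was compared with the control sample of its own number (the replicate block), 5 of the 10 members passed. Mnt, Mxi1, Mxd3 and Mycl were lower and Mga was higher. Under the same block 29.9% of all genes passed, 14.6% higher and 15.3% lower, and this is the share against which 5 of 10 is to be read. Groups that did not overlap were found for 3 members, all lower, where 15.7% of all genes tested were lower without overlap and 15.6% higher, 31.4% in all. The median log2 fold change of the 10 members was -0.01, beside 0.003 over all genes tested.

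**Figure D2:**
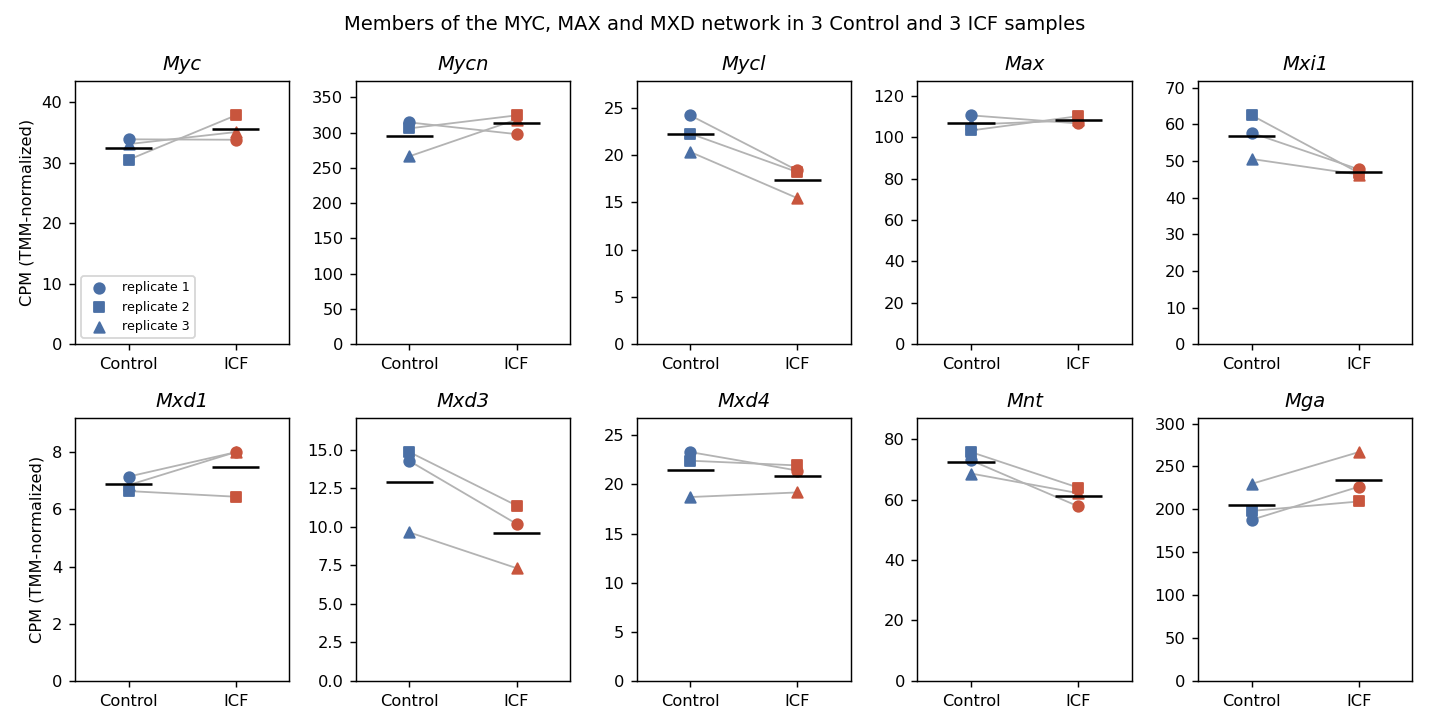
TMM-normalized CPM of the 10 members in the control and ICF groups, with a point for each sample, its shape giving the replicate, grey lines joining samples of the same number and a black bar at the group mean. Mnt, Mxi1 and Mycl are lower in every ICF sample than in every control sample, and Mxd3 falls along each of the 3 lines although its groups overlap.

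Positions of genes are those of GRCm38. Among the activators, Mycn encodes the MYC family protein best known from embryonic and neural progenitors and occupies bases 12936093 to 12941914 of chromosome 12. Its level was 314.4, 306.0 and 266.4 CPM in control replicates 1 to 3 and 297.8, 324.4 and 318.5 CPM in ICF replicates 1 to 3. The groups overlapped, with control replicate 3 the lowest. Its fold change was, in log2 units, 0.09 ± 0.08 (SE; adjusted p = 0.522, edgeR, and 0.232 under the block). With the block and both replicate 1 samples left out it passed, at a log2 fold change of 0.17 (adjusted p = 0.0267, edgeR), where 1563 of 16951 genes were called higher.

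Myc itself, the founding member and a regulator of growth and ribosome production, occupies bases 61985391 to 61990374 of chromosome 15. Its level was 33.87, 30.5 and 33.08 CPM in the control and 33.8, 37.83 and 35.07 CPM with ICF. Control replicate 1 lay just above ICF replicate 1, so the groups overlapped. The means gave a log2 fold change of 0.13 ± 0.07 (SE; adjusted p = 0.33, edgeR, and 0.165 under the block).

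Mycl, a MYC paralogue best known from lung tumours and dendritic cells, occupies bases 122995652 to 123002485 of chromosome 4. Its level was 24.22, 22.29 and 20.35 CPM in the control and 18.4, 18.22 and 15.46 CPM with ICF. Every ICF sample lay below every control sample. In log2 units the difference from control was -0.36 ± 0.11 (SE; adjusted p = 0.0694, edgeR), and it passed with the block (adjusted p = 0.000563) and with DESeq2 (adjusted p = 0.0316). Without the block, leaving out control replicate 3 brought Mycl, Mxi1 and Mnt past the threshold, with adjusted p-values of 0.045, 0.021 and 0.0468 in edgeR, and leaving out any other sample brought none. The fit without control replicate 3 called 928 of 17034 genes lower and 724 higher, where that of all samples called 733 and 580 of 16729.

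Max encodes the partner that all the other proteins share and occupies bases 76937269 to 76962201 of chromosome 12. Its level was 110.5, 103.2 and 106.1 CPM in the control and 106.6, 110.1 and 108.1 CPM with ICF. The ICF samples all lay within the range of the control. On the log2 scale ICF differed from control by 0.02 ± 0.03 (SE; adjusted p = 0.843, edgeR), and its sign turned when control replicate 2 was left out.

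Among the antagonists, Mnt encodes a broadly expressed repressor that binds MAX throughout the cell cycle and occupies bases 74830920 to 74845725 of chromosome 11. Its level was 72.98, 75.73 and 68.63 CPM in the control and 57.78, 63.98 and 62.14 CPM with ICF. All ICF samples were below all control samples. Its fold change was, in log2 units, -0.24 ± 0.06 (SE; adjusted p = 0.0661, edgeR), and the adjusted p was 0.0014 with the block and 0.0333 with DESeq2.

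Mxi1 encodes an MXD protein that recruits SIN3 and is also known as a target of HIF-1, the transcription factor that responds to low oxygen. It occupies bases 53310518 to 53375810 of chromosome 19. Its level was 57.62, 62.41 and 50.51 CPM in the control and 47.68, 46.73 and 46.26 CPM with ICF. The ICF samples were close together and below every control sample, of which replicate 3 came nearest. This amounted to a log2 fold change of -0.28 ± 0.09 (SE; adjusted p = 0.0775, edgeR), with 0.000963 under the block and 0.0416 with DESeq2. Of its exon bases, 2.84% overlap Gm10197 on the opposite strand, a gene with a mean of 0.333 counts over the 6 samples.

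Mxd3, an MXD gene known for its expression in proliferating progenitors, occupies bases 55325168 to 55329823 of chromosome 13. Its level was 14.27, 14.85 and 9.64 CPM in the control and 10.19, 11.38 and 7.32 CPM with ICF. Both samples numbered 3 were low, so the groups overlapped, yet ICF was lower within each replicate number, by 0.48, 0.38 and 0.40 on the log2 scale. In log2 units the difference from control was -0.42 ± 0.27 (SE; adjusted p = 0.231, edgeR), and it passed with the block (adjusted p = 0.001) but not with DESeq2 (adjusted p = 0.172). Of its exon bases, 4.43% overlap the abundant gene Prelid1 on the opposite strand, which had a mean of 8211 counts and a log2 fold change of -0.33 (adjusted p = 0.0818, edgeR, and 8.02e-06 with the block). The libraries were strand-specific but the strand setting of the counting is not given in the sources used here, and the part of Prelid1 in the value of Mxd3 was not tested.

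Mxd1 and Mxd4 encode MXD repressors that usually rise as cells leave the cell cycle. Mxd1, on chromosome 6 from 86647042 to 86669161, was the weakest member, with 197 to 278 counts per sample as deposited. In ICF replicate 3 it had 232 counts, a multiple of 4 as for all members in that sample. Its level was 7.15, 6.64 and 6.85 CPM in the control and 8.004, 6.446 and 8.009 CPM with ICF, and ICF replicate 2 lay below all control samples. Its log2 fold change was 0.12 ± 0.11 (SE; adjusted p = 0.602, edgeR). Mxd4, on chromosome 5 from 34173883 to 34187720, had 23.3, 22.42 and 18.72 CPM in the control and 21.42, 21.94 and 19.19 CPM with ICF. The samples numbered 3 were again the lowest of each group, and the log2 fold change was -0.04 ± 0.11 (SE; adjusted p = 0.836, edgeR). The block called neither gene, and 6.06% of the exon bases of Mxd4 overlap the opposite-strand gene Gm42846, which had a mean of 0.333 counts.

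Mga encodes a very large MAX partner that carries a T-box domain besides its MAX-binding domain and anchors the Polycomb complex PRC1.6. It occupies bases 119897228 to 119969581 of chromosome 2. Its level was 187.9, 198.2 and 229.8 CPM in the control and 226.4, 209.2 and 266.8 CPM with ICF. Both samples numbered 3 were the highest of their groups and the groups overlapped, while ICF was higher within each number, by 0.27, 0.08 and 0.21 on the log2 scale. On the log2 scale ICF differed from control by 0.19 ± 0.13 (SE; adjusted p = 0.299, edgeR), and with the block the adjusted p was 0.00461. With the block, leaving out both samples of a number kept Mnt, Mxi1, Mxd3 and Mycl past the threshold each time, whereas Mga was lost without replicate 1. Those fits called 1769 to 2359 genes lower and 1563 to 2162 higher, of 16868 to 16951 tested. No p of a single member from an exact two-sided permutation test of 3 samples against 3 can go below 0.1.

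**Figure D3:**
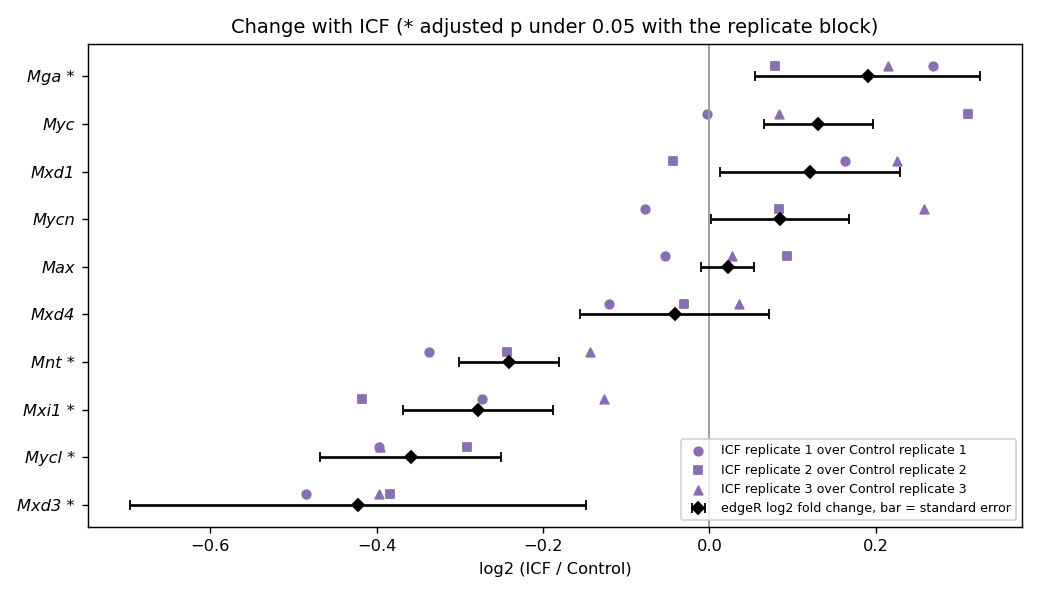
Log2 fold change of each member with ICF, as black diamonds with bars of 1 standard error, and the log2 ratio of each ICF sample to the control sample of the same number as purple symbols. Mnt, Mxi1, Mycl and Mxd3 lie below 0 for all 3 numbers and Mga above 0 for all 3, and an asterisk marks these 5 as past an adjusted p of 0.05 with the replicate block.

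The parallel MLX arm of the network shares the E-box and responds to glucose. Of its 3 genes, none passed in edgeR with or without the block or in DESeq2. None had an unadjusted p under 0.05, where 4277 of all 16729 genes tested did. Mlx, the MAX-like partner, was at 49.3 ± 3.24 CPM in the control and 48.8 ± 3.27 CPM with ICF (SD, n = 3). Mlxip, which encodes the glucose sensor MondoA, had 57.62, 58.87 and 57.78 CPM in the control and 54.96, 55.65 and 49.71 CPM with ICF, lower in each ICF sample (log2 fold change -0.12, adjusted p = 0.304, edgeR). Mlxipl, which encodes ChREBP, was the weakest of the arm at 1.99 ± 0.40 CPM in the control and 1.85 ± 0.32 CPM with ICF (SD, n = 3). Txnip and Arrdc4, arrestin-family genes that MondoA induces when glucose is plentiful, had log2 fold changes of -0.20 and -0.05. Txnip did not pass without the block (adjusted p = 0.393, edgeR) and passed with it (adjusted p = 0.011, edgeR), without control replicate 3 and without both samples numbered 3, although ICF was higher than control within replicate 3, at 169.1 against 166.3 CPM. Arrdc4 did not pass (adjusted p = 0.758, edgeR, and 0.568 with the block).

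The proteins through which the members act were described by lists chosen for this purpose. Among 13 cofactors of MYC, 1 fell and none rose (median log2 fold change -0.06), where 4.38% of all genes tested fell and 3.47% rose. The block gave 2 that rose and 2 that fell, where 14.6% of all genes rose and 15.3% fell. Actl6a, a subunit of chromatin remodelling complexes, fell from 253 ± 8.23 to 215 ± 1.95 CPM (SD, n = 3), which is -0.24 in log2 units (adjusted p = 0.0342, edgeR), a call lost in 5 of 6 fits that left out 1 sample. Ep400, the motor of the TIP60 complex, had a log2 fold change of -0.17 (adjusted p = 0.162, edgeR, and 0.00882 with the block), and Bptf, a reader of histone methylation, of 0.14 (adjusted p = 0.317, edgeR, and 0.023 with the block). Both also passed without both samples numbered 3. Ruvbl1, an ATPase of several remodellers, did not pass at -0.11 (adjusted p = 0.34, edgeR, and 0.117 with the block). Among 15 genes of the SIN3 corepressor, which MXD proteins recruit, 1 fell and none rose, and the median was 0.04. The block gave 3 that fell and 1 that rose, to be read against the same shares of all genes. Sin3a, the scaffold of that complex, had 208.4, 213.0 and 196.0 CPM in the control and 179.2, 177.6 and 162.8 CPM with ICF. Each ICF sample was lower than each control sample, with a log2 fold change of -0.25 (adjusted p = 0.0482, edgeR). That call was likewise lost in 5 of 6 fits that left out 1 sample, and held without control replicate 3. Of the other subunits named by the rule, Sap30 had a log2 fold change of -0.33, Ing2 of -0.24 and Suds3 of 0.19. None of the 3 passed in edgeR without the block (adjusted p = 0.0788, 0.135 and 0.0871) and all passed with it. They also passed without both samples numbered 3, Sap30 and Ing2 without control replicate 3, and Sap30 with DESeq2 and the looser filter on low counts.

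MYC protein is short-lived, and its turnover is set by ubiquitin ligases and the enzymes that oppose them. None of 11 such genes passed in edgeR, and 1 had an unadjusted p under 0.05, where 4277 of all 16729 genes tested did. DESeq2 called 1 lower, where it called 7.26% of genes lower. The median log2 fold change was 0.03, and with the block 1 rose and 2 fell, where 14.6% and 15.3% of all genes did. Usp28, a deubiquitinase that stabilizes MYC, had 171.1, 178.4 and 167.3 CPM in the control and 149.7, 148.2 and 150.1 CPM with ICF. The groups were well apart, with a log2 fold change of -0.21 (adjusted p = 0.0526, edgeR, and 0.00175 with the block). Aurka, a mitotic kinase that stabilizes MYCN, had a log2 fold change of -0.14 (adjusted p = 0.0369 with the block). Fbxw7, the ligase subunit that targets MYC and MYCN, was at 65.7 ± 2.17 CPM in the control and 71.9 ± 6.11 CPM with ICF (SD, n = 3) and passed in neither fit.

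The 9 genes listed here as PRC1.6 partners of MGA were all higher with ICF in their mean. The list leaves out Wdr5, which was counted with the MYC cofactors and had a log2 fold change of -0.055 (adjusted p = 0.696, edgeR). Of 9 partners, 9 had a log2 fold change above 0, from 0.02 to 0.25 with a median of 0.13, and in 3 the groups did not overlap. Over all genes tested 8437 of 16729 were above 0, and 15.6% were higher without overlap. E2f6, a repressive E2F protein, rose from 31.92, 32.42 and 32.77 CPM in the control to 38.44, 38.68 and 38.39 CPM with ICF. The spread within each group was small, and the log2 fold change was 0.25 (adjusted p = 0.047, edgeR), but the call was lost with the looser filter on low counts and in 5 of 6 fits that left out 1 sample. Its dimer partner gene Tfdp1 had a log2 fold change of 0.18 (adjusted p = 0.0715, edgeR, and 0.00501 with the block). L3mbtl2, a chromatin-compacting subunit, had 0.12 (adjusted p = 0.08 with the block) and the ligase subunit gene Ring1 0.21 (adjusted p = 0.0669 with the block). With the block 3 of the 9 passed, all higher, where 14.6% of all genes were higher in that fit.

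The E-box that MYC, MAX and MXD proteins bind is CACGTG, which reads the same on both strands. RefSeq promoter windows of GRCm38.p6, from 250 bases before to 50 bases after each start site, held it in 7.15% of all 32851 windows. Windows matched 9 of the 10 members, all but Myc, and the E-box was found in those of Max, Mnt and Mxd4. The sites of the 3 members are shown with 10 bases on each side and the E-box in capitals, because they are the members whose windows hold the letters that the network's proteins bind. The start site lies 3 bases after the first E-box letter in Max, 123 bases after it in Mnt and 219 bases after it in Mxd4.
Max, chr12:76962236-76962261, minus strand: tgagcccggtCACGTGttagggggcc
Mnt, chr11:74830791-74830816, plus strand: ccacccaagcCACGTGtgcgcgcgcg
Mxd4, chr5:34187914-34187939, minus strand: gctgggccacCACGTGctgttgctaa

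The stretches upstream of Mnt and Mxi1, the 2 antagonists that were lower without overlap between the groups, are shown as far as no annotated exon is reached. Capitals mark the E-box in Mnt and, in the shown Mxi1 stretch that has it, ACGTG, the core of the E-box and of many HIF-1 sites. ACGTG was searched on both strands and was present in 19.6% of all windows, counting those with CACGTG, which contains it. The first Mxi1 stretch precedes the start of the longest transcript, and the second precedes a start site within the gene, where it lies in an intron. Another Mxi1 window, with its start site at 53329695, also holds ACGTG, 25 bases before that site, and is not shown. Of the other members, Mga, whose mean was higher with ICF, has ACGTG 8 bases before its start site. Max and Mxd4 have it within CACGTG. The windows of Mycl, which was lower without overlap, and of Mycn, Mxd1 and Mxd3 have none. These are matches of letters only, and no binding was measured.
Mnt, chr11:74830674-74830919, plus strand: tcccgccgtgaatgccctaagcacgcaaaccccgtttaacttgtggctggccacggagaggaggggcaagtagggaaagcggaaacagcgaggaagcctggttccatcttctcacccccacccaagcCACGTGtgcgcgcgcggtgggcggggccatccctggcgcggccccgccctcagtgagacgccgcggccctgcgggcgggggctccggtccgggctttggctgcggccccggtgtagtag
Mxi1, chr19:53310256-53310505, plus strand: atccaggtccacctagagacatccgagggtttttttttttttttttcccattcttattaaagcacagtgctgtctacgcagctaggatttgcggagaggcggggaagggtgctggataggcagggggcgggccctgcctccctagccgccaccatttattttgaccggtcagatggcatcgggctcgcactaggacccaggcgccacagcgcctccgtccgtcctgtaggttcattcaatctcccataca
Mxi1, chr19:53329163-53329412, plus strand: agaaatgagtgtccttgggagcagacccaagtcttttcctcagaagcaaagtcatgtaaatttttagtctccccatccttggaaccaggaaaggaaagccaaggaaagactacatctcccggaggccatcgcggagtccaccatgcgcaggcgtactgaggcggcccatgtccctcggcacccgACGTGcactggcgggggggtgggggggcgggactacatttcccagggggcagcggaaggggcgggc

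Germ cell genes are the best known genes that MGA and MAX silence in pluripotent cells. Of their promoter windows 12 of 18 held the E-box (66.7%, beside 7.15% of all windows), in 10 of 15 genes, a share that was given no test. Sites are shown for Stag3, which fell, and for Sycp1 and Ddx4, whose log2 fold changes were -0.45 and 0.13, with the E-box in capitals.
Stag3, chr5:138280329-138280354, plus strand: cgctggagccCACGTGacaggactgc
Sycp1, chr3:102936179-102936204, minus strand: gagaacccggCACGTGggaagggaaa
Ddx4, chr13:112652324-112652349, minus strand: cgtccgcccgCACGTGcagccgttta

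Of the 15 germ cell genes, 1 rose and 1 fell with ICF, where 3.47% of all genes tested rose and 4.38% fell. At an unadjusted p under 0.05 there were 4, beside 4277 of all 16729 genes tested. The median log2 fold change was -0.21, and 10 of the 15 were lower, where 8292 of all 16729 genes tested were. With the block 4 fell and 1 rose, where 15.3% of all genes fell and 14.6% rose. Stag3, a cohesin subunit of meiosis, fell from 33.87, 34.78 and 30.89 CPM in the control to 22.95, 23.82 and 20.99 CPM with ICF, a log2 fold change of -0.56 (adjusted p = 0.00656, edgeR, and 0.052 without control replicate 2). Zcwpw1, a meiotic histone reader whose windows hold no E-box, rose from 15.57, 15.78 and 17.67 CPM to 21.42, 20.82 and 25.27 CPM, a log2 fold change of 0.46 (adjusted p = 0.0313, edgeR), a call lost in 4 of 6 fits that left out 1 sample. Smc1b, another meiotic cohesin gene without an E-box in its windows, had a log2 fold change of -0.74 (adjusted p = 0.0621, edgeR, and 3.91e-06 with the block). Its values were 15.23, 15.49 and 14.96 CPM in the control and 8.004, 6.658 and 12.7 CPM with ICF, so the size of the difference was smallest within replicate 3. Mov10l1, a piRNA pathway helicase gene, had -0.31 and passed in neither fit, although its groups did not overlap. Ddx4, a germ cell helicase, was at 26.5 ± 1.26 CPM in the control and 29.01 ± 0.92 CPM with ICF (SD, n = 3).

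Genes that MYC proteins are known to activate were described by a list of 58, mostly of ribosome assembly, nucleotide and polyamine synthesis, translation and growth. Of these, 2 rose and 5 fell, the median log2 fold change was 0.05, and 41 of the 58 were higher with ICF. Over all genes tested 3.47% rose and 4.38% fell, and 8437 of 16729 were higher. With the block 13 rose and 8 fell, where 14.6% and 15.3% of all genes did. DESeq2 called 7 higher and 5 lower, where it called 5.95% of genes higher and 7.26% lower. Of the genes that fell, Ldha and Hk2 are enzymes of glycolysis that are also known targets of HIF-1, and Shmt2 feeds the one-carbon pool. Ldha fell from 1559 ± 261 to 482 ± 11.9 CPM (SD, n = 3), which is -1.69 in log2 units (adjusted p = 0.000308, edgeR). Hk2 fell by 0.79 on the log2 scale, Ccnd2, which encodes cyclin D2, by 0.57 and Shmt2 by 0.50. Tfrc, the transferrin receptor gene, also fell, and the genes that rose were Imp4, of the small ribosomal subunit processome, and Hspd1, a mitochondrial chaperone, at 0.31 and 0.34. These 3 were named after their values were seen. Of the 49 listed genes with a promoter window, 14 held an E-box.

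Among 9 genes that MYC is known to repress, 1 rose and 2 fell, where 3.47% of all genes tested rose and 4.38% fell. Their median log2 fold change was -0.19. With the block 3 rose and 4 fell, where 14.6% and 15.3% of all genes did. Cdkn1a, the p21 inhibitor of cell cycle kinases and a p53 target, rose from 40.9 ± 3.75 to 67.4 ± 17.2 CPM (SD, n = 3), which is 0.72 in log2 units (adjusted p = 0.0308, edgeR), a call lost in 2 of 6 such fits. Ndrg1, a stress gene that HIF-1 also induces, fell, with a log2 fold change of -1.58, and so did its relative Ndrg2, with -1.02. Cdkn2b, which encodes p15, had a log2 fold change of 0.45 (adjusted p = 0.0877, edgeR, and 0.012 with the block).

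**Figure D4:**
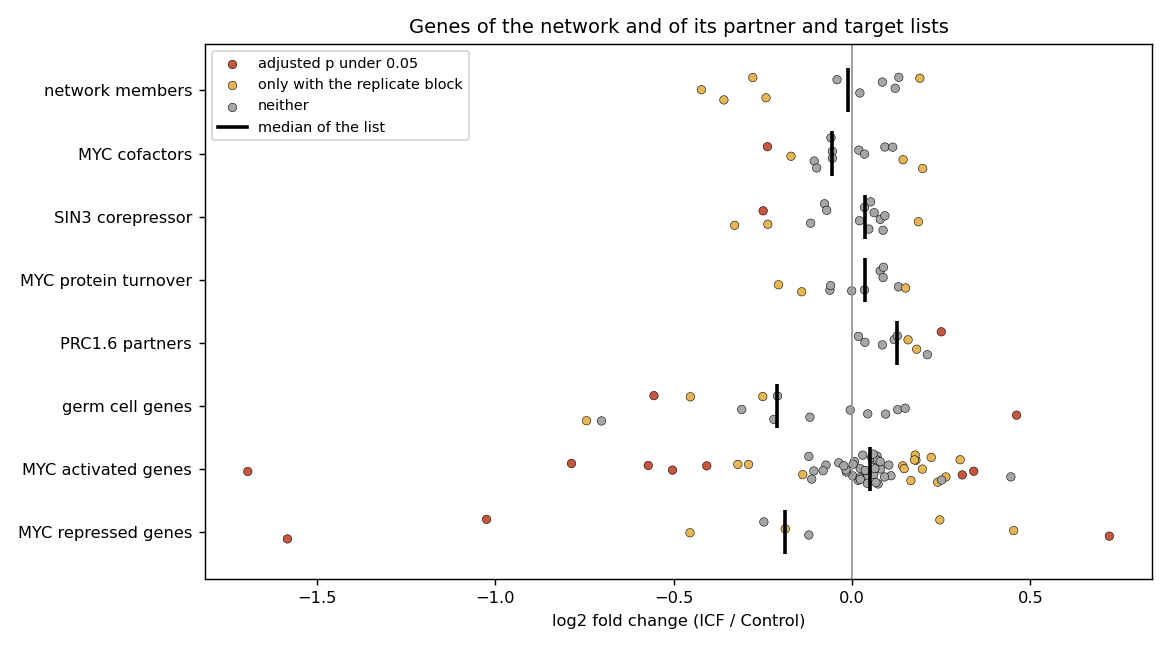
Log2 fold change with ICF of each tested gene of the network and of 7 partner and target lists (the MLX arm and its targets are not plotted), with a black line at each list's median and colours for genes past an adjusted p of 0.05 in edgeR without the block (red) or, of these fits, only in that with it (yellow). The 9 genes listed as PRC1.6 partners, without Wdr5, all lie above 0, between 0.02 and 0.25. The genes of each other list shown lie on both sides of 0.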

How the data were processed

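RNA was sequenced from 3 ICF and 3 control samples as strand-specific mRNA libraries. Raw gene counts, not normalized, were deposited by the authors, who used Trimmomatic for trimming, HISAT2 for alignment and HTSeq for counting. The submitters' processing notes name GRCm38 and also hg38, bcl2fastq 2.19 and DESeq2, and other versions are not given in the sources used here. HTSeq rows naming no gene took 38.1% to 40.3% of the reads, most of them aligned to several places, and were left out. GENCODE M21 (GRCm38) gave positions and exon lengths, and 50462 of the 50686 identifiers had a name.

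All tested genes entered edgeR 4.0.16 in R 4.3.3 (glmQLFTest, TMM, filterByExpr). The threshold was a Benjamini-Hochberg adjusted p of 0.05 over all of them. Standard errors were computed from log2 CPM, and TPM from the summed exons of a gene. Members, the MLX arm and its targets were named, with up to 4 genes of lowest adjusted p from each other list; 1 gene so chosen is not reported here. Members and lists were chosen with earlier results of these data known. The replicate block uses the donor numbers of the labels. Deviations of samples sharing a number correlated at r = 0.15, 0.20 and 0.38 for numbers 1, 2 and 3, while combinations of different numbers ran from -0.34 to 0.26. Control replicate 1 with ICF replicate 2 gave 0.26, and control replicate 2 with ICF replicate 1 gave 0.17. These correlations thus set the samples numbered 3 apart but do not show which samples numbered 1 and 2 belong together. The study's methods call the samples independent experiments and the labels call them donors. Without the block, p-values judge the difference between groups against the spread between samples of a group. With the block, they judge it against the spread left after differences between the numbers are taken out. Alternatives were DESeq2 1.42.0, RLE size factors, other filters, ICF replicate 3 counts divided by 4, and left-out samples. The edgeR test without the block was checked on counts simulated without differences between replicate numbers. The replicate block and DESeq2 were not checked in this way.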

Additional observations from a re-analysis of the deposited data

How the results depend on the processing

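The calls of members depended on the replicate block and on the samples numbered 3. Without the block, edgeR called 0 members higher and 0 lower. At an unadjusted p under 0.05 were 3 members, beside 4277 of all 16729 genes tested. RLE size factors, both other filters and the division of ICF replicate 3 by 4 left the counts of called members at 0. DESeq2 called 3 lower. The replicate block gave 1 higher and 4 lower, and so did the block with DESeq2, the block with ICF replicate 3 divided by 4, and the fit without both samples numbered 3. Leaving out 1 sample, or both of a number with the block, gave 0 to 1 members higher and 0 to 4 lower. Over all genes, leaving out 1 sample gave 85 to 724 higher and 215 to 928 lower, and leaving out a number with the block 1563 to 2162 higher and 1769 to 2359 lower. The replicate block called 2445 genes higher and 2561 lower, the block with DESeq2 1354 and 1666, the fit without both samples numbered 3 2466 and 2627, and DESeq2 877 higher, against 580 and 733 without the block. Under the replicate block the lists had, as higher and lower, 2 and 2 MYC cofactors, 1 and 3 SIN3 genes, 1 and 2 turnover genes, 13 and 8 MYC activated and 3 and 4 MYC repressed genes, with 3 PRC1.6 partners higher and 4 germ cell genes and 1 MondoA responsive gene lower. The block with DESeq2 gave 2 and 2, 1 and 2, 0 and 2, 11 and 8, 2 and 4, with 2 PRC1.6 partners higher, 2 germ cell genes and 1 MondoA responsive gene lower. Without both samples numbered 3 these were 2 and 2, 1 and 4, 1 and 2, 14 and 9, 3 and 5, with 3 higher, 3 lower and 1 lower. DESeq2 gave 2 SIN3 genes, 1 turnover gene and 2 germ cell genes lower, and 2 PRC1.6 partners and 7 MYC activated genes higher. It called 7.26% of genes lower and 5.95% higher. Division of ICF replicate 3 by 4 gave 1 turnover gene and 2 germ cell genes lower and 4 MYC activated genes higher. The looser filter gave 2 SIN3 genes and 2 germ cell genes lower, 4 MYC activated genes and 0 PRC1.6 partners higher, and the stricter filter 1 turnover gene lower. Leaving out 1 sample gave 0 to 4 MYC activated, 0 to 1 MYC repressed, 0 to 1 germ cell and 0 to 1 PRC1.6 genes higher, and 0 to 3 SIN3, 0 to 2 germ cell, 0 to 1 MYC cofactor, 0 to 1 turnover and 0 to 1 MondoA responsive genes lower. The log2 ratio of activators to antagonists differed by 0.181, by 0.052 on CPM without length, by 0.319 without Mga and by 0.147 to 0.227 when a sample was left out. Signs turned for genes near 0. With samples left out, the Max log2 fold change ran from -0.001 to 0.048 without the block and from -0.014 to 0.060 with it, the Mxd4 log2 fold change from -0.132 to 0.020 without the block and from -0.076 to 0.001 with it, the Mlx log2 fold change from -0.066 to 0.030, the Mlxipl log2 fold change from -0.256 to 0.026 and the Arrdc4 log2 fold change from -0.152 to 0.010, and without both samples numbered 3 Mlxipl was at 0.128. The causes were not tested. The weakest member, Mxd1, rested on 197 to 278 counts as deposited, and of 180 member values under alternatives 134 kept direction and side of the threshold.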
